A study of Mus musculus with 24 samples.

Results

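Car6, Cox6a2, Chchd10, Acox2, Acot2, Soat2, Akr1b7, B4galnt2, Avil and Nrip2 are 10 genes of mouse embryonic fibroblasts that were far higher under stress of the endoplasmic reticulum (ER) and that are not usually listed among stress-response genes. They were picked for the size of their difference with tunicamycin in wild-type cells or with AP in Fv2E-PERK cells, so their values in those 4 groups are given as a description and carry no test. They are 10 of 20170 genes named on the arrays. All 10 were among the 14470 genes tested, a set limited to genes whose brightest probe exceeded background clearly throughout 1 or more of the 10 groups. For 5 of them (Car6, Avil, B4galnt2, Akr1b7 and Nrip2) that condition was met through treated wild-type or AP-treated groups alone.

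The arrays were 24 one-colour Agilent arrays, each with RNA of 1 fibroblast sample. Perk-null, Atf4-null and eIF2a A/A cells were each measured after 12 h of tunicamycin (2 arrays) and untreated (2 arrays). Fv2E-PERK cells were measured after 12 h of AP (2 arrays) and untreated (2 arrays), and wild-type cells after 12 h of tunicamycin (4 arrays) and untreated (4 arrays). Tunicamycin was used at 2 µg/mL, and the AP dose is not given in the sources used here. The labels give 12 h for all treated samples while the shared protocol allows 12 or 24 h, and 1 file name (untreated Perk-null replicate 2) speaks of 24 h of mock treatment. Perk-null cells lack the kinase PERK, Atf4-null cells lack the transcription factor ATF4, and eIF2a A/A cells carry an eIF2α whose phosphorylated serine is replaced by alanine. Fv2E-PERK cells carry a transgene for a PERK kinase fused to a dimerisation domain, which AP switches on without ER stress. The labels give neither the genotype of the host cells of that transgene nor its promoter, and they do not say whether replicates came from separate cultures. The p-values below therefore cover variation among these samples alone, part or all of which may be technical.

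Tunicamycin blocks N-linked glycosylation, so that misfolded glycoproteins build up in the ER. PERK then phosphorylates eIF2α, which lowers translation of most mRNAs but favours that of ATF4, a transcription factor for amino acid transport, redox and apoptosis genes. The IRE1 and ATF6 branches act beside PERK and raise ER chaperones and degradation factors. The 10 genes have other textbook roles. Car6 encodes a secreted carbonic anhydrase of saliva. Cox6a2 is the heart and skeletal muscle form of cytochrome c oxidase subunit 6A, and Chchd10 encodes a mitochondrial intermembrane space protein. Acox2 is a peroxisomal oxidase of branched-chain fatty acids and bile acid intermediates, and Acot2 is a mitochondrial acyl-CoA thioesterase. Soat2 esterifies cholesterol in liver and intestine, Akr1b7 is an aldo-keto reductase of the adrenal and vas deferens, and B4galnt2 is a glycosyltransferase of intestinal epithelium. Avil encodes advillin, an actin-binding protein of the villin family found in sensory neurons, and Nrip2 encodes a protein that binds nuclear receptors.

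Levels are processed signals on the log2 scale from which each array's 75th percentile was subtracted, so 0 is the brightness of a probe at that percentile and each unit is a doubling. The percentile lay between 111.4 and 417.7 intensity units, and the share of probes clearly over background was 45.1% to 58.2%. The arrays fell into 3 scan sets. Set 1 held wild-type replicates 1 and 2 with the Atf4-null arrays, set 2 held wild-type replicates 3 and 4 with the Perk-null arrays, and set 3 held the Fv2E-PERK and eIF2a A/A arrays on a later version of the array design. In set 1 all treated arrays lay on one slide and all untreated arrays on another, so slide and treatment cannot be told apart there. The names of the scanner files call the wild-type cells of set 1 and set 2 by different lines. Of 14 fibroblast markers, 11 were well above background on every array. Atf4 lay between -4.27 and 2.79 on the Atf4-null arrays, against 7.20 to 9.14 on the wild-type arrays. Eif2ak3, the gene of PERK, lay between -0.47 and 0.28 on the Perk-null arrays, against -0.05 to 1.79 on the wild-type arrays; whether its probe lies in the deleted part is not given, so it checks nothing.

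Among the promoter windows given by RefSeq (250 bases before to 50 after each gene's start, assembly GRCm38.p6), 7 of the 10 genes had an entry: Car6, Akr1b7, Chchd10, Avil, B4galnt2, Acot2 and Acox2. They were searched on both strands for 4 motifs: TGATGNAA, the core of the composite element bound by C/EBP and ATF proteins, TGACGTCA, the cAMP response element, CCACG, part of the ER stress element, and the full ER stress element, of which CCACG is the end. The first motif matched in 2 genes, Chchd10 and Avil, and in 3.97% of all 32851 windows. Chchd10 held it 2 times, at 85 and at 72 bases before the start, which 0.07% of all windows did. Avil held it once, 17 bases before the start. CCACG matched once among the 7 genes, in Car6, and in 32.8% of all windows. TGACGTCA (1.79% of windows) and the ER stress element (0.119%) matched in none of the 7. The 250 bases before the start of Chchd10 (chr10:75932880-75933129, plus strand) and Avil (chr10:127000459-127000708, plus strand) are shown because they hold the matches of the first motif, in capitals.
Chchd10: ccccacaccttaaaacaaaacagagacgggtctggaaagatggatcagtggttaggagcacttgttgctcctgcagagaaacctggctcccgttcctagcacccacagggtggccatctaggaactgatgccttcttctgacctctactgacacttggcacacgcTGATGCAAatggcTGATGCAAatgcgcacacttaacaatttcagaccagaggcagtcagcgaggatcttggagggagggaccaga
Avil: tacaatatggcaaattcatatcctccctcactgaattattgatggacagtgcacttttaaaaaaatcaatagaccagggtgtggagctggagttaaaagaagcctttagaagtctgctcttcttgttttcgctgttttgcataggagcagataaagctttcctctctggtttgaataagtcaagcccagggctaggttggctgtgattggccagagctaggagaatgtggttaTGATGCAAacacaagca
All 3 matches read TGATGCAA. A match is a description of these letters, and binding was not measured.

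Car6 had the largest fitted difference of the 10 genes with either treatment. Within scan set 2, the set in which untreated wild-type Car6 was above background, its 6.55 (93.9-fold) was below the 7.04 of Avil (at least 132-fold). Car6 stood at 5.92, 5.61, 5.16 and 5.25 on the tunicamycin arrays, against -4.93, -4.45, -1.22 and -1.47 on the untreated arrays. Only the last 2 of those untreated arrays, both of scan set 2, were well above background. The mean difference was 8.50 ± 0.61 (SE of the fit over 10 groups), 362-fold, and it ranked 1st of all tested genes in the fit. With each untreated array below background set to the lowest signal well above background on it, the fold was 313. With AP, Car6 stood at 1.86 and 1.76, against -6.67 and -5.74 in untreated Fv2E-PERK cells, where neither array was above background. AP cells were thus at least 84.8-fold higher, and the fitted difference of 8.02 ± 0.86 was again the largest of all genes. That rank depends on the processing. Over the alternatives the AP difference of Car6 fell as low as 4.26, while that of Cox6a2 was never below 4.68. A bound of this kind sets the bright group's mean against the dim group's mean, with each dim array at the higher of its own signal and the lowest signal among its probes well above background. It holds for the processed signal alone, and other processing gave differences below these bounds.

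Cox6a2 and Chchd10, both mitochondrial, were higher with each treatment. Cox6a2 stood at 4.38, 4.10, 4.03 and 3.99 on wild-type tunicamycin arrays, against -2.77, -4.24, -0.62 and -1.07 on untreated ones, of which 3 were above background. The difference was 6.30 ± 0.53, or 78.8-fold (72.7-fold set as for Car6). In Fv2E-PERK cells Cox6a2 stood at 3.65 and 3.61 with AP, against -1.66 and -1.75 untreated, a 40.3-fold difference between arrays all above background. The AP level of Cox6a2 lay within 1.41-fold of its wild-type tunicamycin level, although below every one of those 4 arrays. Chchd10 was well above background on all 24 arrays. It stood at 6.65, 5.81, 4.34 and 4.48 with tunicamycin in wild-type cells, against 0.77, 1.08, -0.11 and -0.01 untreated, a 29.6-fold difference (4.89 ± 0.21). The tunicamycin arrays of scan set 1 were the brighter pair. With AP it stood at 2.82 and 2.96, against 0.50 and 0.48 untreated, a 5.27-fold difference.

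The fatty acid genes Acox2 and Acot2 differed in their starting level. Acox2 stood at 2.46, 3.30, 1.88 and 1.83 in tunicamycin-treated wild-type cells, against -5.04, -5.86, -4.97 and -4.37 in untreated ones, where 1 of 4 arrays was above background. The fitted difference of 7.43 ± 0.44 (172-fold) ranked 3rd, and with the untreated arrays below background set as for Car6 it was 114-fold. With AP it stood at -1.27 and -1.26, against -5.99 and -6.11 untreated, both below background, so AP cells were at least 10.1-fold higher. Acot2 was above background on every array. It stood at 1.17, 0.56, 2.32 and 2.22 in tunicamycin-treated wild-type cells, against -2.67, -1.96, -1.30 and -1.18 untreated, a 10.1-fold difference (3.34 ± 0.17) and the smallest of the 10. AP-treated cells had -0.57 and -0.69, against -2.60 and -2.74 untreated, a 4.1-fold difference.

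Soat2 and Akr1b7 reached about the same level with AP as with tunicamycin. Soat2 stood at 3.0, 2.10, 1.76 and 1.90 in tunicamycin-treated wild-type cells, against -2.77, -3.67, -3.04 and -3.39 untreated, a 42.6-fold difference (5.41 ± 0.26). With AP it stood at 1.96 and 1.97, against -3.98 and -4.42 untreated, of which 1 was above background, a 71.9-fold difference. Akr1b7 stood at 1.35, 0.28, -1.24 and -1.10 in tunicamycin-treated wild-type cells, against -5.42, -5.40, -7.01 and -5.82 untreated, all below background, so it was at least 24.2-fold higher. Its AP arrays read -0.32 and -0.35, against -6.06 and -6.58 untreated, also below background, and AP cells were at least 19.1-fold higher. These were the 2 genes whose AP arrays did not lie below all wild-type tunicamycin arrays.

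B4galnt2 and Avil were among the 8 genes with every AP array below every wild-type tunicamycin array, as were 27.2% of tested genes. B4galnt2 was the most uniform gene under tunicamycin, with 1.41, 1.35, 1.36 and 1.21 in wild-type cells, against -4.96, -5.65, -3.57 and -3.69 untreated, the last 2 above background. The fitted difference was 5.80 ± 0.29 (55.6-fold), and 38.7-fold with the other 2 untreated arrays set as for Car6. With AP it stood at -2.97 and -3.15, against -6.21 and -6.46 untreated, at least 2.89-fold higher. Avil stood at 1.82, 0.68, 1.89 and 1.89 in tunicamycin-treated wild-type cells, against -5.46, -3.91, -5.23 and -5.07 untreated, all below background, and was at least 77.3-fold higher. With AP it stood at -1.94 and -2.12, against -6.62 and -6.54 untreated, at least 5.92-fold higher.

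Nrip2 was the only one of the 10 genes with no AP array above background. In tunicamycin-treated wild-type cells it stood at -1.59, -0.71, -0.61 and -0.80, against -6.66, -5.81, -7.02 and -7.05 untreated, all below background, and was at least 14.4-fold higher. With AP it stood at -6.52 and -5.50, against -6.61 and -6.55 untreated, and none of these 4 arrays was above background. It was also the only one of the 10 genes with a second probe. That probe read -2.57, -1.87, -2.10 and -1.98 in tunicamycin-treated wild-type cells, against -6.04, -5.97, -5.99 and -7.34 untreated. On it AP cells had -6.73 and -6.57, against -5.23 and -5.65 untreated, again all below background. Both probes thus read higher on every wild-type tunicamycin array than on either AP array.

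**Figure D1:**
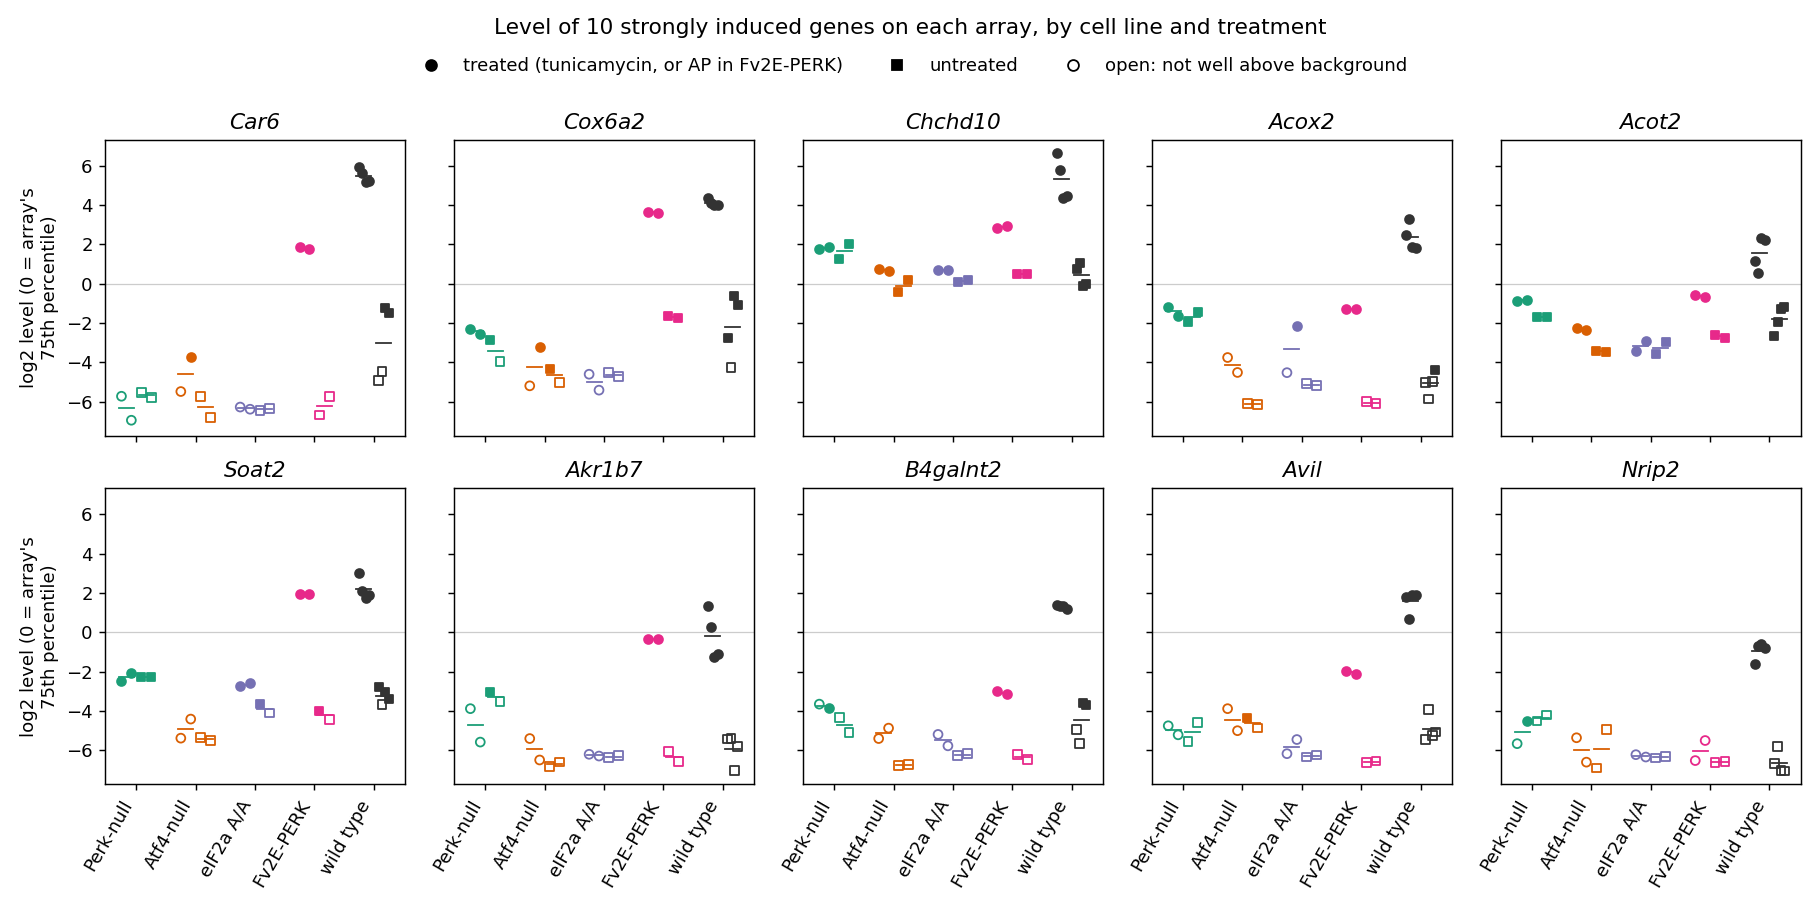
Level of each gene on each of the 24 arrays (log2 of the processed signal relative to the array's 75th percentile), by cell line, with treated arrays as circles left of untreated arrays as squares and a line at each group's mean. Open symbols are not well above background; all 10 genes are well above background in tunicamycin-treated wild-type cells, 9 of them in AP-treated Fv2E-PERK cells, and most symbols of the 3 mutant lines are open.

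On the log2 scale the 10 wild-type differences ran between 3.34 and 8.50 with a median of 5.77, beside a median of 0.07 over all tested genes. Of all tested genes, 21.2% were called higher, that is, past an adjusted p of 0.05 in limma (Benjamini-Hochberg), and nothing is read from that share since the genes were picked on this contrast. All 10 genes had every tunicamycin array above every untreated array, as had 13.7% of tested genes. They took 9 of the 14 largest wild-type differences, with Acot2 at rank 57. The largest outside the 10 were those of Derl3 (7.81 ± 0.27), an ER degradation factor, Fgf21 (5.48 ± 0.49), a secreted hormone, Bhlha15 (5.33 ± 0.62), a secretory cell transcription factor, Hmx3 (4.98 ± 0.56) and Myom2 (4.89 ± 0.43). Of the 4 untreated wild-type arrays, 2 were above background for Fgf21 and Myom2 and 1 for Bhlha15 and Hmx3.

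The fitted AP differences ran between 0.57 for Nrip2 (-0.08 with normexp and -1.21 on its second probe) and 8.02 for Car6, with a median of 4.67, beside 0.08 over all tested genes, of which 2.79% were called higher. Every AP array lay above every untreated array for the 10 genes, as for 45.3% of tested genes, and for Nrip2 all 4 arrays were at background. In AP cells 6 of the 12 largest differences were from these genes. B4galnt2 (rank 38), Chchd10 (90), Acot2 (139) and Nrip2 (1360) were further down. The largest AP differences outside the 10 were those of Saa3 (7.47 ± 2.98), an acute-phase apolipoprotein, Gm13043 (6.15 ± 0.82), Pramel16 (5.15 ± 0.92), Pramel31 (5.03 ± 0.84) and Gm20767 (4.76 ± 0.61). Untreated cells were below background for the first 4, which were at least 59.4-fold (Saa3, which did not pass), 59.7-fold (Gm13043), 7.31-fold (Pramel16) and 7.76-fold (Pramel31) higher with AP, and 1 of 2 untreated arrays was above it for Gm20767. As a share of the wild-type log2 difference, the AP difference was 114% for Soat2, 84.6% for Cox6a2, 60.8% for Acot2 and 49.1% for Chchd10. The other 6 genes were below background on both untreated Fv2E-PERK arrays, and no share is given for them. Treatment, cell line and array design differ together between these 2 responses, so these shares are set side by side only.

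Wild-type cells of the 2 scan sets differed in size of response but not in its direction. Within set 1 the difference for Car6 was 10.45 (2 against 2 arrays) and within set 2 it was 6.55. Car6 was at background untreated in set 1 (mean -4.69) and measured in set 2 (-1.35), while its tunicamycin levels were 5.76 in set 1 and 5.21 in set 2. Cox6a2 differed in the same way, by 7.74 in set 1 and 4.86 in set 2. For Avil (5.93 in set 1, 7.04 in set 2), Nrip2 (5.08 and 6.33) and Acot2 (3.18 and 3.50) set 2 gave the larger difference, and for the other 7 genes set 1 did. The term for scan set in the fit takes out a shift of all wild-type arrays, not a set's own response, so the fitted values are means over both. What the term leaves enters each gene's spread. All 10 groups share that spread, so the p-values of the mutant lines carry it too. In set 2 treated and untreated wild-type arrays shared a slide, and there all 10 genes were higher by 3.50 to 7.04.

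**Figure D2:**
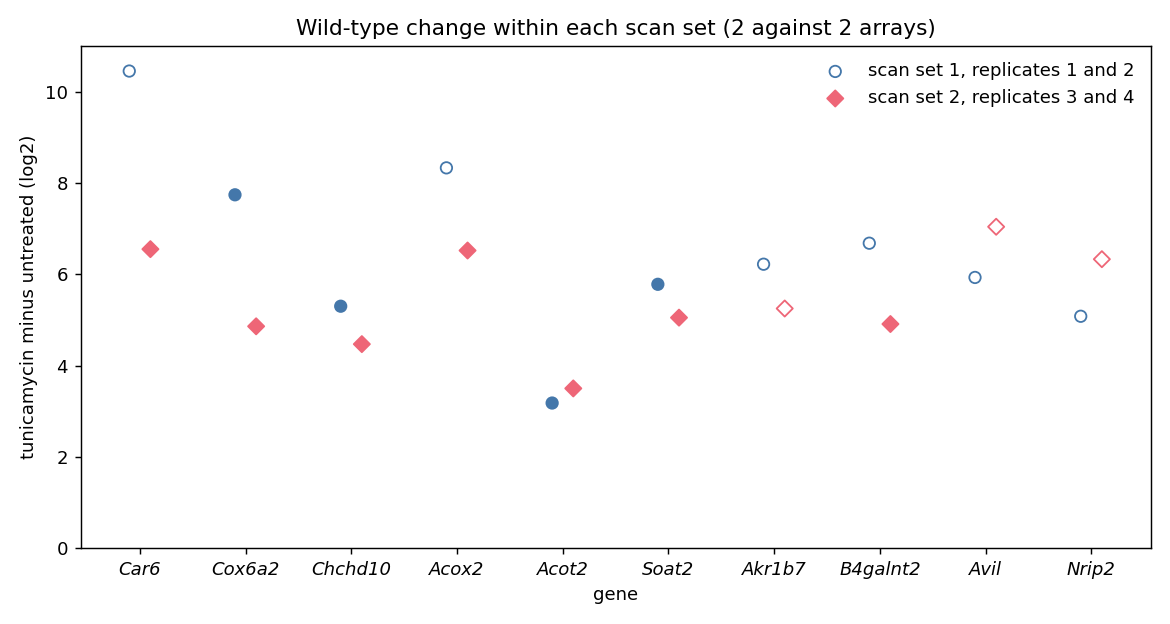
Difference between tunicamycin-treated and untreated wild-type cells (log2) within each scan set, 2 arrays against 2, for each gene. Open symbols mark sets in which neither untreated array was well above background; every point lies above 3, between 3.18 for Acot2 in set 1 and 10.45 for Car6 in set 1.

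Responses of the mutant lines are set beside the wild-type response, which is a mean over both wild-type scan sets. Cell line differs together with genotype, and eIF2a A/A arrays share neither scan set nor array design with a wild-type array. The part of genotype in a gap to wild type therefore cannot be told apart. The mutant arrays took no part in picking the genes, so the mutant responses were tested. Genes below background on all arrays of a line give no measured response there, and 5 of the 10 entered the tests through the groups they were picked on. In Perk-null cells 8 of the 10 genes had an array above background. Of these 8, 0 passed an adjusted p of 0.05 in limma, beside 2.4% of tested genes with such an array (2.28% of all). The 8 include B4galnt2, Akr1b7 and Nrip2, each with 1 such array, which entered the tests only through the groups they were picked on. A missed call was likely for them from the start, and nothing is read from it. The same holds for Car6 and Avil in Atf4-null cells. In eIF2a A/A cells 4 genes had an array above background and 0 passed, beside 5.18% (4.89% of all). In Atf4-null cells 5 had one and 2 of them, Acot2 and Chchd10, were higher, beside 29.7% called in either direction (29% of all, 12% higher). Acox2 and B4galnt2 also had an adjusted p under 0.05 there, with every Atf4-null array below background. Over all 10 genes, 3 had an unadjusted limma p under 0.05 in Perk-null cells, beside 12.6% of tested genes, and 2 in eIF2a A/A cells, beside 17.4%. Every treated array lay above every untreated array for 3 of the 10 genes in Perk-null cells (26.6% of tested genes), 6 in Atf4-null cells (25.4%) and 5 in eIF2a A/A cells (35.5%). These counts include Acox2, B4galnt2 and Akr1b7 in Atf4-null cells and Avil and B4galnt2 in eIF2a A/A cells. Those were below background on every array of the line, so no rise was measured for them. With genes at background included, the median responses of the 10 were 0.14 in Perk-null, 0.79 in Atf4-null and 0.30 in eIF2a A/A cells, beside 0.02, -0.04 and 0.01 over all tested genes and 5.77 for the 10 in wild-type cells. All 30 mutant responses, those of genes at background included, had a 95% interval that ended below the wild-type interval of the same gene. With the genes picked for large differences, this gap was largely fixed in advance. How many of all tested genes show it was not computed, so nothing is read from it. Every treated array of each mutant line lay below every treated wild-type array for all 10 genes, as it did for 30% of tested genes in Perk-null, 29.5% in Atf4-null and 23.7% in eIF2a A/A cells. AP arrays did so for 8 of the 10, against 27.2% of tested genes. These comparisons use the wild-type arrays on which the genes were picked and are therefore descriptions.

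**Figure D3:**
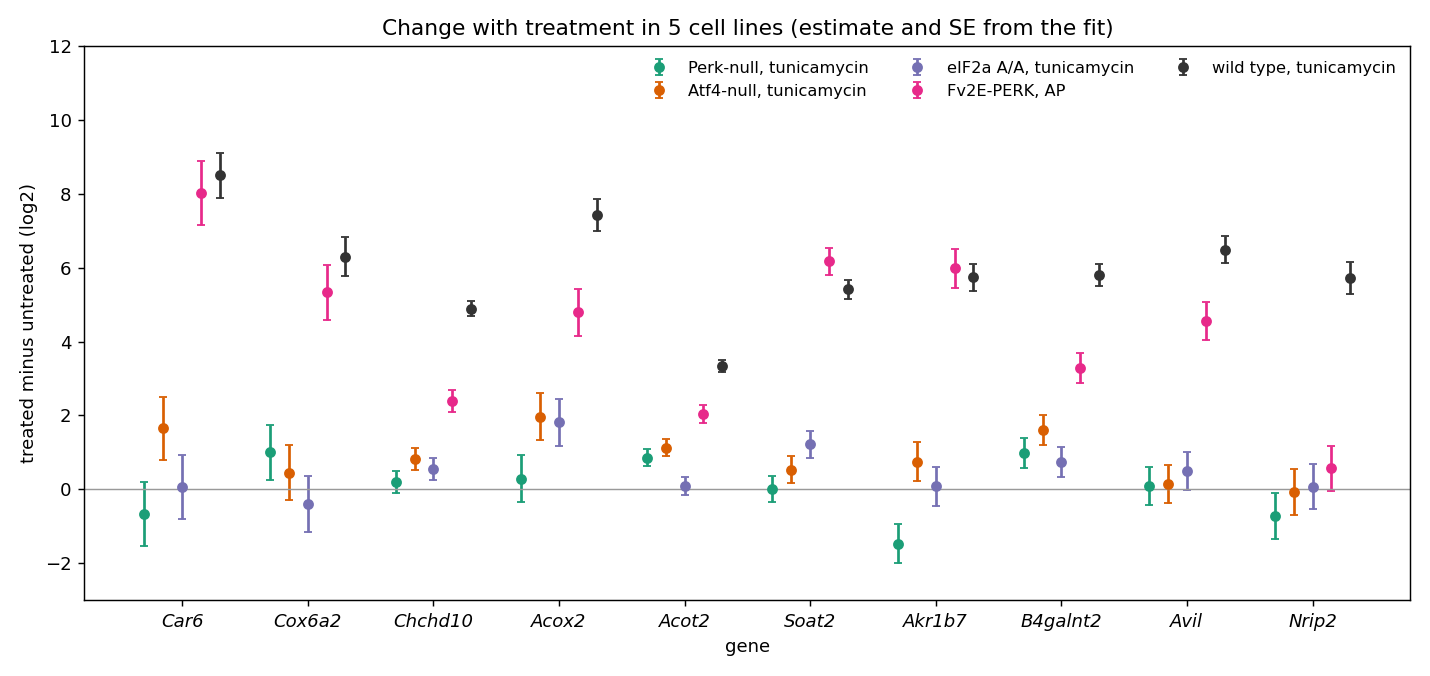
Change with treatment for each gene in Perk-null, Atf4-null and eIF2a A/A cells (tunicamycin), Fv2E-PERK cells (AP) and wild-type cells (tunicamycin), as log2 of treated over untreated with the SE of the fit (n = 2 arrays a group, 4 in wild type). The mutant estimates lie between -1.47 and 1.97, and the wild-type estimates between 3.34 and 8.50.

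Acot2 and Chchd10, which were measured on every array, give the mutant responses most directly. Acot2 stood at -0.87 and -0.82 in tunicamycin-treated Perk-null cells, against -1.69 and -1.71 untreated, a difference of 0.86 (95% interval 0.35 to 1.37, limma adjusted p = 0.0888). In Atf4-null cells it stood at -2.27 and -2.34 with tunicamycin (intensities 23 and 56), against -3.41 and -3.45 untreated (31 and 33). On this scaled signal Acot2 was higher by 1.13 ± 0.24 (2.19-fold, limma adjusted p = 0.00317). Treated Atf4-null replicate 1, with a 75th percentile of 111.4, was the dimmest of the 24 arrays, so the difference leans on the scaling. For Acot2 in wild-type cells the difference was 10.1-fold. In eIF2a A/A cells it stood at -3.41 and -2.93 with tunicamycin, against -3.55 and -2.98 untreated, a difference of 0.10 (-0.41 to 0.61). The groups overlapped there and did not overlap in the other mutant lines. Within slides, the Perk-null difference was 0.84 on slide 3 and 0.87 on slide 4 (1 array against 1). The Atf4-null call of Acot2 was kept without any 1 of the 24 arrays. It was lost with quantile normalisation (adjusted p = 0.0598), without the term for scan set (0.137) and with the 4 Atf4-null arrays alone (0.177), in a range over all alternatives of 0.000996 to 0.177. Without wild-type replicate 2 the Perk-null response of Acot2 passed (adjusted p = 0.0356 without the untreated and 0.0499 without the tunicamycin array).

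Chchd10 stood at 1.78 and 1.89 in tunicamycin-treated Perk-null cells, against 1.28 and 2.01 untreated, a difference of 0.19 (-0.45 to 0.83). In Atf4-null cells it stood at 0.77 and 0.64 (intensities 190 and 442), against -0.44 and 0.18 untreated (242 and 416). The difference of 0.83 ± 0.30 for Chchd10 passed the test narrowly (limma adjusted p = 0.0487). In eIF2a A/A cells it stood at 0.71 and 0.71, against 0.10 and 0.19 untreated, a difference of 0.56 (-0.08 to 1.20, limma adjusted p = 0.357), which passed when the 4 eIF2a A/A arrays were fitted alone (adjusted p = 0.0228). The Atf4-null call did not hold under 23 of 33 alternatives, with limma adjusted p between 0.0127 and 0.359. It was lost without any 1 of the Atf4-null arrays except untreated replicate 2: at 0.258 without untreated replicate 1, 0.168 without treated replicate 1 and 0.102 without treated replicate 2. It was also lost, at adjusted p between 0.0509 and 0.0616, without untreated wild-type replicate 2, 3 or 4, treated wild-type replicate 4, either treated Perk-null array, or any of the Fv2E-PERK and eIF2a A/A arrays. The levels of Chchd10 in order ran from treated wild-type (mean 5.32) through AP-treated Fv2E-PERK (2.89) and both Perk-null groups (1.83 treated, 1.65 untreated) to the other 6 groups, between 0.71 and -0.13. The ranges of the Perk-null groups overlapped, and those of untreated Fv2E-PERK (0.49), wild-type (0.43), eIF2a A/A (0.14) and Atf4-null cells (-0.13) overlapped with the next in order. Acot2 followed the same order at the top: 1.57 in treated wild-type, -0.63 in AP-treated Fv2E-PERK and -0.85 in treated Perk-null cells, with no overlap among these 3.

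Acox2 and Soat2 were present in untreated Perk-null cells. Acox2 stood at -1.19 and -1.63 in tunicamycin-treated Perk-null cells and at -1.93 and -1.45 in untreated ones, all 4 above background. The Perk-null response of Acox2 was 0.29 (-1.05 to 1.63, limma adjusted p = 0.953), from a level that lay above every untreated array of the other lines. In Atf4-null cells Acox2 had a limma adjusted p of 0.0284, with -3.75 and -4.51 on treated arrays, against -6.07 and -6.13 on untreated ones. All 4 were below background, so no rise was measured. In eIF2a A/A cells 1 of 2 treated arrays was above background, at -2.14, the other stood at -4.52, and untreated cells had -5.08 and -5.19 (difference 1.81, 0.47 to 3.15, limma adjusted p = 0.129). Without that second array, treated replicate 1, the eIF2a A/A difference was 3.0 and passed (limma adjusted p = 0.0176). The summed level of 9 epithelial markers was likewise highest in Perk-null cells, 5.79 to 5.94 treated and 5.63 to 5.94 untreated, against 0.23 to 2.85 in the other lines, and its part in these levels was not tested. Soat2 stood at -2.46 and -2.05 in tunicamycin-treated Perk-null cells, against -2.26 and -2.28 untreated, a difference of 0.01 (-0.76 to 0.78). In eIF2a A/A cells it stood at -2.73 and -2.58, against -3.65 and -4.10 untreated, a difference of 1.22 (0.45 to 1.99, limma adjusted p = 0.0725). Soat2 in eIF2a A/A cells passed without 1 of 4 arrays of other lines: at 0.0319 without untreated wild-type replicate 2, 0.0329 without treated wild-type replicate 1, and 0.0474 without either treated Atf4-null array. It also passed with quantile normalisation (0.0434) and with the 4 eIF2a A/A arrays alone (0.0279). All 4 Atf4-null arrays were below background for Soat2.

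Car6, the gene with the largest fitted wild-type difference, was not above background on any Perk-null or eIF2a A/A array. On the Perk-null arrays it read -5.72 and -6.94 with tunicamycin, against -5.54 and -5.78 untreated. On the Atf4-null arrays 1 of 2 treated arrays was above background, at -3.73 beside -5.48, against -5.72 and -6.78 untreated (difference 1.65, -0.18 to 3.48, limma adjusted p = 0.163). Treated Perk-null cells were at least 883-fold and treated eIF2a A/A cells at least 932-fold lower than treated wild-type cells for Car6. Cox6a2 stood at -2.29 and -2.55 in tunicamycin-treated Perk-null cells, against -2.87 and -3.97 untreated, a difference of 1.00 (-0.60 to 2.60, limma adjusted p = 0.712). It was below background on all eIF2a A/A arrays, and treated eIF2a A/A cells were at least 363-fold lower than treated wild-type cells for Cox6a2.

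For Avil, Akr1b7, B4galnt2 and Nrip2 the mutant lines were at or close to background. B4galnt2 had a limma adjusted p of 0.00937 in Atf4-null cells, with -5.40 and -4.87 on treated arrays, against -6.77 and -6.70 untreated, but all 4 were below background and no rise was measured. The p was above 0.05 without treated Atf4-null replicate 2 (adjusted p = 0.072), with quantile normalisation (0.471) and with slide as a random block (0.0554). For Acox2 it was above 0.05 without untreated Atf4-null replicate 1 (0.062) or 2 (0.116), without treated replicate 1 (0.164), with quantile normalisation (0.196) and with slide as a random block (0.113). Akr1b7 had 1 array of the mutant lines above background, untreated Perk-null replicate 1 at -3.01. It read -3.88 and -5.58 in treated Perk-null cells, against -3.01 and -3.52 untreated (difference -1.47, -2.60 to -0.34, limma adjusted p = 0.204), with -0.37 within slide 3 and -2.57 within slide 4. Nrip2 had 1 such array, treated Perk-null replicate 2 at -4.49, and Avil had 1, untreated Atf4-null replicate 1 at -4.33. Treated cells of the 3 mutant lines were at least 46.2-fold lower than treated wild-type cells for Avil and at least 13.8-fold lower for Akr1b7. Bulk arrays cannot tell fewer responding cells from less RNA per cell.

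The 3 mutant responses were also set against each other. Between Perk-null and eIF2a A/A cells 0 of the 10 genes passed, beside 0.352% of tested genes, and 2 had an unadjusted limma p under 0.05, beside 10.9%. Between Atf4-null and eIF2a A/A cells 0 passed, beside 12.6%, and 1 had an unadjusted p under 0.05, beside 28.7%. Between Atf4-null and Perk-null cells 0 passed, beside 15%, and 1 had an unadjusted p under 0.05, beside 30.6%. These counts include genes at background in the lines compared. Among them are Car6, Avil, B4galnt2, Akr1b7 and Nrip2, which entered the tests only through the groups they were picked on, so nothing is read from their missed calls. The difference nearest the threshold was that of Akr1b7, 2.22 higher in the Atf4-null than in the Perk-null response (95% interval 0.64 to 3.80, limma adjusted p = 0.0567). It passed without untreated wild-type replicate 4 (0.0387), treated wild-type replicate 1 (0.037), treated Perk-null replicate 1 (0.0145) or treated Atf4-null replicate 2 (0.031), and 1 array of the 8 mutant arrays behind it was above background. Acot2 differed by 1.03 between the Atf4-null and eIF2a A/A responses (0.28 to 1.78, limma adjusted p = 0.0613). It passed without wild-type replicate 2 (0.0283 without the untreated and 0.0332 without the tunicamycin array) or untreated eIF2a A/A replicate 1 (0.0492). A p that misses the threshold does not show that the mutants respond alike, and cell line, scan set and array design differ together between them.

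Known stress genes were read on the same arrays. Of 9 (Ddit3, Trib3, Chac1, Atf3, Asns, Hspa5, Herpud1, Derl3 and Fgf21), all 9 rose in Perk-null cells, with a median of 2.24. In Atf4-null cells 4 rose and Asns, the asparagine synthetase, fell (-1.38 ± 0.25), and in eIF2a A/A cells 4 were called higher, among them Derl3 with every eIF2a A/A array below background. With AP 7 rose, and Hspa5, the ER chaperone BiP (0.26 ± 0.14), and Derl3 (-0.47 ± 0.38) did not pass. In wild-type cells all 9 rose, with a median of 3.84. Fgf21 had the largest Perk-null rise of the 9 (4.10 ± 0.69, against 5.48 ± 0.49 in wild-type cells), and Hspa5 the smallest (2.37-fold, against 4.55-fold). Ddit3 rose 2.41-fold in Perk-null cells, against 25.5-fold in wild-type cells, Derl3 6.68-fold, against 224-fold, and Asns 4.89-fold, against 4.38-fold. The 10 genes had differences between -1.47 and 1.00 in Perk-null cells, where Car6 and Avil were below background on every array. Of all tested genes, 2.28% were called in Perk-null and 4.89% in eIF2a A/A cells in either direction. Called higher were 12% in Atf4-null cells, 2.79% with AP and 21.2% in wild-type cells.

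Relatives of the 10 genes in the same families or pathways were mostly uncalled or lower, as tested genes were in general. Of 128 tested relatives on the 11 lists, 3 rose and 2 fell with AP, with a median of -0.01, and 19 rose and 35 were called lower with tunicamycin in wild-type cells, with a median of -0.10. Of the 35, 1 (Scin) was below background on every wild-type array. Beside that, 2.79% and 1.27% of all tested genes rose and fell with AP, and 21.2% and 16.3% in wild-type cells. Among relatives that passed, 1 was more than 2-fold higher in wild-type cells, Pecr, a peroxisomal reductase (1.39 ± 0.12, limma adjusted p = 3.71e-07), and 1 with AP, Nrip3 (1.64 ± 0.31, adjusted p = 0.00748). The lists were drawn up with results of these data known, and they overlap in some genes, among them Acot1 and Ehhadh.

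The relatives of the fatty acid genes fell more often than they rose in wild-type cells. Acot1, whose product is the cytosolic counterpart of Acot2 and whose gene is the next one to it on chromosome 12, fell by 2.64 on the log2 scale (SE 0.49, limma adjusted p = 0.000554) where Acot2 was 10.1-fold higher. Acot1 stood at -2.16, -2.90, -1.22 and -1.01 in tunicamycin-treated wild-type cells, against 2.05, 1.74, -0.24 and -0.27 untreated, so the fall was larger in scan set 1. The coding sequences of both genes are closely alike, and how far each probe reads the other was not tested. With AP, Acot1 had a difference of 0.13 ± 0.69, which did not pass. In Atf4-null cells, Acot11 (2.97 ± 0.67, with 1 of 2 untreated arrays above background) and Acot13 (0.75 ± 0.19) rose, and with AP Acot8 rose (0.56 ± 0.14). Of 18 peroxisomal beta-oxidation and bile acid enzymes beside Acox2, 2 rose and 6 fell in wild-type cells, among them Ehhadh (-1.25 ± 0.42, with 2 of 4 treated arrays above background), the bifunctional enzyme, and Phyh (-1.19 ± 0.29), which starts phytanic acid breakdown. Of 19 targets of the lipid-sensing receptor PPARα, 0 rose and 10 fell in wild-type cells by limma, among them Pdk4 (-2.26 ± 0.44, with 3 of 4 treated arrays above background), which inhibits pyruvate dehydrogenase, and 0 rose or fell with AP. Angptl4, a lipase inhibitor on that list, rose in Perk-null cells (4.26 ± 0.69, adjusted p = 0.00286), and Ucp3 fell in eIF2a A/A cells (at least 1.05-fold lower, with no treated and 1 of 2 untreated arrays above background).

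The mitochondrial relatives of Cox6a2 and Chchd10 went both ways in wild-type cells. Of 14 other cytochrome c oxidase subunits, 2 rose and 3 fell in wild-type cells and 0 passed with AP by limma. In Atf4-null cells 8 of the 14 fell and none rose, beside 17% of all tested genes that fell, led by Cox7a2 (-1.43 ± 0.15), Cox6b1 (-1.27 ± 0.17), Cox6c (-1.18 ± 0.19) and Cox7b (-0.93 ± 0.15). Of 18 relatives of Chchd10 (CHCH-domain and MICOS proteins, small mitochondrial proteins and the complex that shapes the cristae), 6 rose and 3 fell in wild-type cells. Chchd4, the import oxidoreductase of the intermembrane space, rose by 0.93 ± 0.19 there. In Atf4-null cells 2 rose and 6 fell, led by Cmc2 (-1.19 ± 0.14), Cox19 (-1.08 ± 0.12) and Apool (-1.01 ± 0.20).

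In the other families no relative that passed was more than 2-fold higher in wild-type cells. Of 11 tested carbonic anhydrases beside Car6, 0 rose in wild-type cells by limma and 2 fell, Car13 (-1.41 ± 0.22) and Car12 (-1.31 ± 0.22), and 0 passed with AP. Car11, a member without catalytic activity, rose in Atf4-null cells (2.43 ± 0.44). Of 9 genes of cholesterol and glycerol ester metabolism beside Soat2, 4 rose and 1 fell in wild-type cells, where Mogat2 fell (-1.17 ± 0.30). Lcat fell with AP (-1.06 ± 0.27), and in eIF2a A/A cells Dgat2 fell (-2.12 ± 0.44) and Lipe rose (at least 2.28-fold, with no untreated array above background). Of 11 aldo-keto reductases beside Akr1b7, 1 rose and 3 fell in wild-type cells. In Atf4-null cells Akr1c14 (1.40 ± 0.45), Akr7a5 (0.68 ± 0.18) and Akr1b10 (0.62 ± 0.18) rose and Akr1b3, the aldose reductase, fell (-0.99 ± 0.26). Of 9 N-acetylgalactosaminyl- and sialyltransferases beside B4galnt2, 0 rose and 4 fell in wild-type cells by limma: St3gal5, the GM3 synthase (-2.11 ± 0.16), St3gal2 (-1.05 ± 0.14), St3gal1 (-0.99 ± 0.18) and St3gal3 (-0.82 ± 0.12). Of 6 actin-severing relatives of Avil, 0 rose by limma and 2 measured ones fell, Vill (-2.00 ± 0.31) and Gsn, gelsolin (-0.95 ± 0.12). Scin was below background on every wild-type array, so its call as lower gives no measured fall. Of 10 nuclear receptor cofactors beside Nrip2, 3 rose, among them Nrip1 (0.74 ± 0.11), and 4 rose in Atf4-null cells, among them Ncoa1 (1.53 ± 0.17) and Ppargc1b (at least 3.0-fold, with 1 of 2 treated and no untreated array above background).

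**Figure D4:**
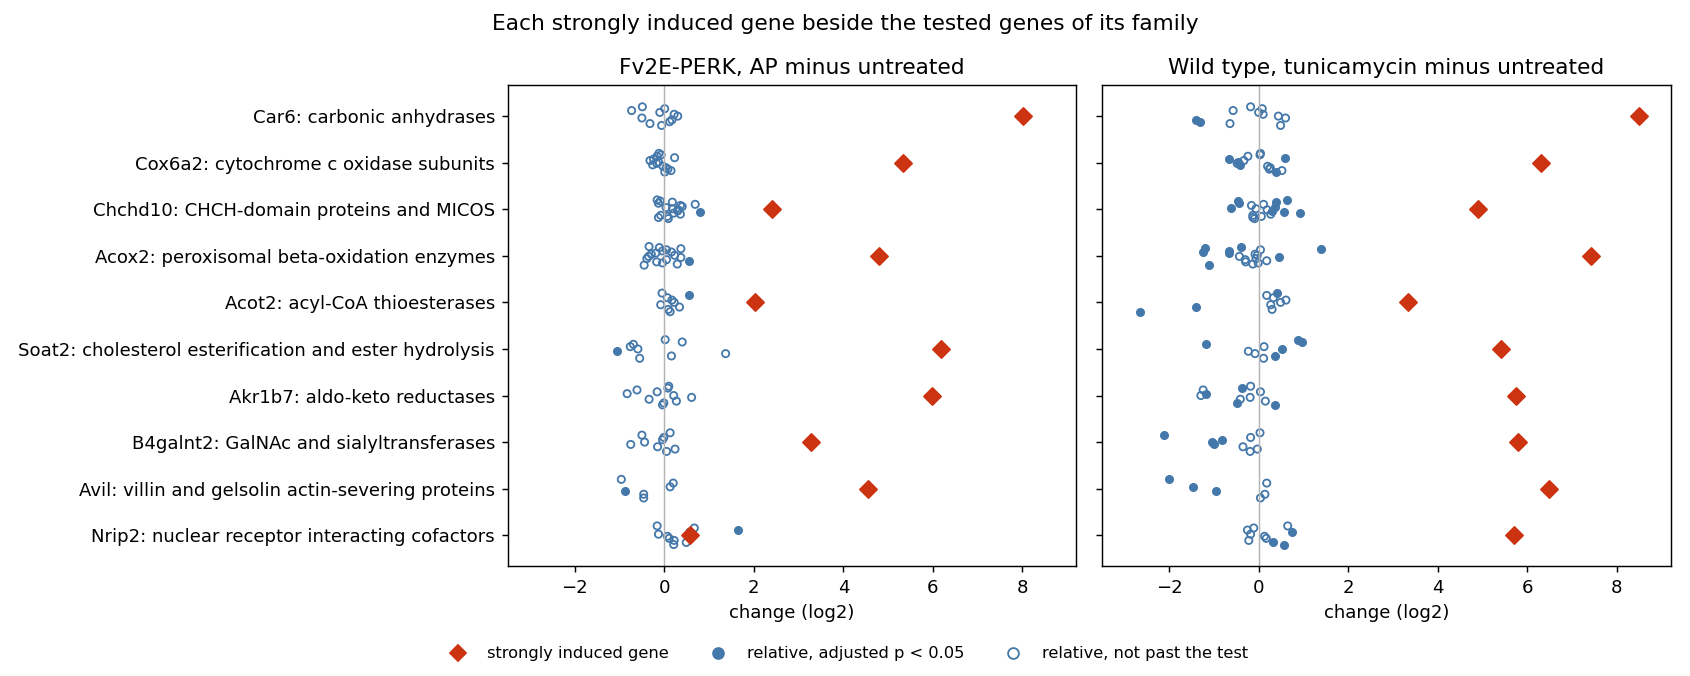
Change (log2) of each of the 10 genes (diamonds) and of the tested genes of its family (circles, filled where limma's adjusted p was under 0.05) with AP in Fv2E-PERK cells, left, and with tunicamycin in wild-type cells, right. Apart from Nrip2 with AP, each diamond lies to the right of all circles of its row. The 10 genes were picked for large differences, so this position was largely fixed in advance.

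Several of the 10 genes mark other tissues, so markers of those tissues were read too. Of 9 muscle markers, Myod1, Ckm, Myh3 and Actn2 were above background on no array. The summed muscle level was -0.14 to 2.18 in tunicamycin-treated wild-type cells, against 0.76 to 2.47 untreated, and 2.48 to 2.61 in AP-treated Fv2E-PERK cells, against 2.27 to 2.38 untreated. Of 6 salivary markers, Bpifa2, Pip and Smr3a were above background on no array, and the summed level was 0.39 to 4.04 in tunicamycin-treated wild-type cells, against 1.69 to 2.41 untreated. It was -1.25 to -0.96 with AP, against -0.58 to -0.42 untreated. Of 6 steroidogenic markers, Cyp11a1 and Hsd3b1 were above background on no array. Their summed level was 2.01 to 3.07 in tunicamycin-treated wild-type cells, against 0.44 to 3.10 untreated, and 2.32 to 2.44 with AP, against 2.51 to 3.05 untreated. The summed level of 8 hepatocyte markers was -2.77 to -1.58 in tunicamycin-treated wild-type cells, against -2.50 to -1.54 untreated, and 2.43 to 2.60 with AP, against 2.27 to 2.38 untreated. That of 8 neural markers was 3.54 to 5.75 in tunicamycin-treated wild-type cells, against 3.89 to 4.47 untreated, and 3.47 to 3.51 with AP, against 3.91 to 3.93 untreated. Of the tested markers in wild-type cells, 0 of 4 muscle genes rose and 1 fell, 0 of 4 hepatocyte genes rose and 1 fell, and 0 of 2 salivary genes rose and 1 fell by limma. Of 7 neural markers 2 rose, Map2 (2.07-fold) and Sox10 (1.63-fold, with 3 of 4 untreated arrays above background). Of 4 steroidogenic ones 2 rose, Cyp21a1 (1.8-fold) and Nr5a1 (1.53-fold). The muscle gene that fell, Des, was above background on 1 untreated array and no treated one. With AP, 1 of the 2 salivary genes rose, Amy1, the salivary amylase (at least 3.24-fold, limma adjusted p = 0.00978), the one that fell in wild-type cells (-1.37 ± 0.25), and 0 of the muscle, hepatocyte, neural and steroidogenic markers passed by limma. The summed level of 9 epithelial markers was 0.83 to 0.97 with AP, against 2.04 to 2.15 untreated, and 1.19 to 1.53 in tunicamycin-treated wild-type cells, against 1.43 to 2.28 untreated. Of the 7 tested, Krt8 fell with AP (-1.40 ± 0.33) and Krt18 in wild-type cells (-1.12 ± 0.29). Of the 14 fibroblast markers, 1 rose and 8 fell in wild-type cells, with a median of -1.12. The part of these shifts in the differences of the 10 genes was not tested.

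The 10 genes followed similar but not identical profiles over the 10 group means. Pearson's r between them ran between 0.58 (Cox6a2 with Nrip2) and 0.97, with a median of 0.87 over 45 pairs. B4galnt2 with Chchd10 and with Acot2 had the highest values, both 0.97. Cox6a2, Akr1b7 and Soat2 were closer to each other (0.90 to 0.95) than to Nrip2 (0.58 to 0.70). Car6 likewise had 0.86 to 0.92 with those 3 genes and 0.68 with Nrip2. All profiles were picked for being high in the same groups, the points share arrays, and no test is given. Outside the 10, the closest profile to Car6 was that of Angptl6 (r = 0.970 over 10 group means), before Gdap1l1 (0.963) and Dyrk4 (0.961). For Avil they were Sspo (0.986), Ppp1r15a (0.973), the stress-induced phosphatase subunit GADD34, and Angptl6 (0.964). For Cox6a2 they were Them4 (0.967), Cebpg (0.966), a bZIP partner of ATF4, and Pck2 (0.964), mitochondrial PEP carboxykinase. For Chchd10 they were Pla2g12a (0.960), Otub2 (0.952) and Sh3tc2 (0.944), and for Acot2 Sh3tc2 (0.957), Kcnt2 (0.946) and Otub2 (0.943). For B4galnt2 they included Sh3tc2 (0.957) and Slc7a11 (0.955), the cystine transporter. For Akr1b7 they were Extl1 (0.958), Ngrn (0.940) and Dyrk4 (0.930), and for Soat2 Otub2 (0.945), Hax1 (0.941) and Gch1 (0.940). Acox2 was closest to Stam (0.951), Tigd2 (0.941) and Rnaseh2a (0.940). Nrip2 was closest to Atp6v1g1 (0.953), Try5 (0.944) and Sh2d6 (0.938), whose differences were 0.17, 0.11 and 0.17 with AP, against 0.93, 4.18 and 3.33 with tunicamycin in wild-type cells.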

How the data were processed

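RNA of 24 mouse embryonic fibroblast samples was hybridised to one-colour Agilent arrays, 1 for each, in 10 groups taken from the labels. The deposited scanner files hold, per spot, a processed intensity that Agilent Feature Extraction 10.7.1.1 made by background subtraction and detrending within the array, per the submitters' processing notes and the file headers. They also hold the median intensity of the spot and its local background, and flags, as deposited. No mean signal was used, so normexp ran on the medians. The authors' deposited table holds log2 values of the same arrays. After centring both by row and column, 99.3% of these agreed to within 0.001 with the log2 processed intensity. The deposited log2 columns had medians, treated before untreated, of 0.39, -0.32, -0.19 and 0.31 (Perk-null), 0.49, -0.06, -0.19 and -0.25 (Atf4-null), 0.04, -0.02, -0.01 and 0.03 (eIF2a A/A), -0.19, -0.08, -0.23 and -0.18 (Fv2E-PERK) and -0.02, 0.07, -0.12, -0.24, -0.13, 0.12, -0.21 and -0.22 (wild type). The baseline of their centring is unknown.

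Control spots were left out, spots of a probe were averaged without outliers, and each array's 75th percentile was subtracted on the log2 scale. No spot was saturated (0). Of 55681 probes, 26631 were named by accession through RefSeq (GRCm38.p6, names, gene order and promoter windows only), 29050 were not, and the brightest probe stood for a gene. The 14470 genes were fitted together with limma 3.58.1 (R 4.3.3, statmod 1.5.0), 10 group means and a term for scan set 2, with 13 residual and 2.23 prior degrees of freedom. Benjamini-Hochberg adjustment ran within each contrast, two-sided, with calls at an adjusted p under 0.05. The fit was tested on simulated data. Descriptions used Python 3.11.15, pandas 2.3.3 and numpy 2.4.6. Precision is limited by the number of arrays.

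The 10 genes and all lists were chosen with earlier results of these data known. Named beside them are, per gene, the 3 closest profiles, per family up to 4 called genes with the largest change, the 5 largest other differences in wild-type and AP responses, and 9 stress genes; some genes that this rule names are not reported here. Alternatives were normexp with an offset of 50, quantile normalisation, no filter, no scan set term, slide or replicate as a block, the second probe, the authors' table, the contrast's own arrays, each wild-type scan set, and each array left out. A block with crossed Perk-null numbers, the look at neighbouring genes, the counts limited to genes with an array above background and the folds with dim arrays raised to background were chosen after seeing the data. Same-numbered wild-type arrays deviated together (r 0.37 to 0.61), but not within a scan set (-0.01 and 0.04). The other lines gave -0.47 (Perk-null), 0.07, 0.06 and 0.02, so the numbers were not taken to pair samples.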

Additional observations from a re-analysis of the deposited data

Results flagged for a closer look

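Avil in tunicamycin-treated wild-type cells had 1 array far from the others: replicate 2 stood at 0.68, beside 1.82, 1.89 and 1.89. The gap to the nearest array was 0.936 of the group's whole range, the only such case among 20 groups of 4 arrays. The limit used was Dixon's critical value, which chance passes in about 1 of 20 groups.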

How the results depend on the processing

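The 10 genes were higher in wild-type cells under all alternatives run, and with AP all but Nrip2. Of 2690 recomputed values of single genes, 36 lost a call, 20 gained one, 66 moved by more than the spread and 60 changed sign. Of the 60, 0 had passed the test in either setting, and the cause was not tested. Signals near background limit the rest: 6 of the 10 genes were below it on all untreated Fv2E-PERK arrays, and 5 and 6 on all Atf4-null and all eIF2a A/A arrays.

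The median of the 10 genes in wild-type cells was 3.82 with normexp, 6.08 on scan set 1 alone and 5.15 on scan set 2 alone (5.68 to 6.01 leaving out 1 array), and the AP median was 1.99 with normexp. For genes given with a bound, the lowest AP differences over the alternatives (log2) were 4.26 (Car6), 1.66 (Acox2), 1.21 (Avil), 0.53 (B4galnt2) and 2.34 (Akr1b7). In wild-type cells the lowest were 3.72 (Avil), 2.29 (Akr1b7) and 1.92 (Nrip2). Each lies below the bound given for the processed signal. Of the 10 genes, those called in Atf4-null cells numbered 1 with quantile normalisation, 2 without the scan set term, 1 with slide as a block, 0 on the 4 arrays alone and 2 to 4 leaving out 1 array, beside 4 as reported, of which 2 were on arrays all below background. In eIF2a A/A cells they numbered 1 with quantile normalisation, 2 on the 4 arrays alone and 0 to 1 leaving out 1 array, and in Perk-null cells 0 to 1. For Atf4-null minus eIF2a A/A they numbered 1 with quantile normalisation and 0 to 1 leaving out 1 array, and for Atf4-null minus Perk-null 0 to 1.

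Counts over all tested genes moved more. Without the scan set term they were 113 (Perk-null, 330 as reported), 2426 (Atf4-null, 4198), 234 (eIF2a A/A, 708), 185 (AP, 587), 3607 (wild type, 5429), 3 (Perk-null minus eIF2a A/A, 51), 670 (Atf4-null minus eIF2a A/A, 1830) and 777 (Atf4-null minus Perk-null, 2165). On the contrast's own arrays, in the same order without wild type, they were 0, 0, 3281, 4158, 492, 286 and 0. With no filter they were 217 in Perk-null cells, 369 with AP and 7 for Perk-null minus eIF2a A/A. With normexp they were 436 in eIF2a A/A cells, 22 for Perk-null minus eIF2a A/A and 3530 for Atf4-null minus Perk-null. Slide as a block gave 83 for Perk-null minus eIF2a A/A, and wild-type scan set 1 alone gave 962. Leaving out 1 array gave 103 to 506 (Perk-null), 2419 to 5423 (Atf4-null), 174 to 1032 (eIF2a A/A), 138 to 861 (AP), 4714 to 5978 (wild type), 6 to 224 (Perk-null minus eIF2a A/A), 803 to 3316 (Atf4-null minus eIF2a A/A) and 1124 to 4147 (Atf4-null minus Perk-null).

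With the replicate number as a block, calls over all genes numbered 262 (Perk-null), 4013 (Atf4-null), 594 (eIF2a A/A), 466 (AP), 5252 (wild type) and 24 (Perk-null minus eIF2a A/A). Of the 10 genes, the block took the Atf4-null call of Chchd10 (adjusted p = 0.0644) and gave 1 call for Atf4-null minus Perk-null, Akr1b7 (adjusted p = 0.0353). Crossed Perk-null numbers gave 27 calls for Perk-null minus eIF2a A/A.

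With normexp, values with turned sign were Avil -0.11 (Perk-null response), Nrip2 0.53 (Atf4-null response), Cox6a2 0.08 (eIF2a A/A response), Nrip2 -0.08 (Fv2E-PERK AP response), B4galnt2 -0.17 (Perk-null minus eIF2a A/A), Avil 0.46, Nrip2 0.45 and Soat2 0.31 (Atf4-null minus eIF2a A/A) and Cox6a2 0.42 (Atf4-null minus Perk-null). With quantile normalisation, values with turned sign were Avil -0.64, Cox6a2 -0.38, Akr1b7 -0.04 and Soat2 -0.43 (Atf4-null response), Cox6a2 0 (eIF2a A/A response), Acox2 -0.79, Cox6a2 -0.38, B4galnt2 -0.48 and Akr1b7 -0.15 (Atf4-null minus eIF2a A/A) and Avil -0.68, B4galnt2 -0.49, Nrip2 -0.06, Soat2 -0.47 and Acot2 -0.21 (Atf4-null minus Perk-null). With slide as a random block, values with turned sign were Cox6a2 -0.09 and Nrip2 0.16 (Atf4-null response) and Acox2 -0.17 and Nrip2 0.09 (Atf4-null minus eIF2a A/A). On the second probe, values with turned sign were Nrip2 0.26 (Perk-null response), Nrip2 1.15 (Atf4-null response), Nrip2 -1.21 (Fv2E-PERK AP response) and Nrip2 0.89 (Atf4-null minus eIF2a A/A). Some genes turned sign when 1 array was left out, and their ranges over all arrays left out follow. For Perk-null response they were Avil -0.38 to 0.55, Chchd10 -0.18 to 0.55 and Soat2 -0.20 to 0.22. For Atf4-null response they were Avil -0.41 to 0.71, Nrip2 -1.05 to 0.92 and Cox6a2 -0.53 to 1.42. For eIF2a A/A response they were Acot2 -0.19 to 0.38 and Cox6a2 -0.80 to 0.02. For Perk-null minus eIF2a A/A they were Avil -0.86 to 0.07 and B4galnt2 -0.14 to 0.62. For Atf4-null minus eIF2a A/A they were Chchd10 -0.04 to 0.58, Nrip2 -1.13 to 0.84, Acox2 -1.03 to 1.36, Avil -0.89 to 0.23 and Cox6a2 -0.14 to 1.81. For Atf4-null minus Perk-null they were Avil -0.49 to 0.63, Nrip2 -0.33 to 1.64 and Cox6a2 -1.53 to 0.42.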

Other observations

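The chromosomal neighbours of the 10 genes, 3 protein-coding genes on each side in the RefSeq order, were looked at after the values of the 10 genes had been seen. Of 60 neighbours 46 were tested, and in wild-type cells 12 rose (21.2% of all tested genes did) and 9 fell (16.3% did) with tunicamycin, with a median of 0.14, beside 0.07 over all tested genes. Derl3, near Chchd10 on chromosome 10, had the largest wild-type difference among them (7.81 ± 0.27, limma adjusted p = 1.52e-11) and -0.47 ± 0.38 with AP (adjusted p = 0.61). Slc2a5, a fructose transporter gene near Car6 on chromosome 4, was at least 3.54-fold higher in tunicamycin-treated wild-type cells, with every untreated array below background (limma adjusted p = 2.19e-06), and had a difference of 0.05 ± 0.45 with AP (adjusted p = 0.974). Itgb7, an integrin gene near Soat2 on chromosome 15, had 2.01 ± 0.39 in wild-type cells (adjusted p = 0.000798) and 0.37 ± 0.55 with AP, which did not pass. Igfbp6, beside Soat2, fell in both, with -1.45 ± 0.32 with AP (adjusted p = 0.0194) and -1.35 ± 0.23 in wild-type cells (adjusted p = 0.000266).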
